A study of Arabidopsis thaliana with 6 samples.

Results

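The 5 genes described here make, regulate and export the coumarins that Arabidopsis thaliana roots release into the soil. They were chosen by gene identifier for their known roles and are 5 of the 33602 genes in the deposited table. MYB72 (AT1G56160) is a MYB transcription factor of the pathway, F6'H1 (AT3G13610) and S8H (AT3G12900) are hydroxylases of coumarin synthesis, BGLU42 (AT5G36890) is a beta-glucosidase, and ABCG37 (AT3G53480, also PDR9) is a plasma membrane exporter.

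Root coumarins branch off the general phenylpropanoid pathway at feruloyl-CoA, which F6'H1 hydroxylates so that scopoletin can form. S8H turns scopoletin into fraxetin and the cytochrome P450 CYP82C4 turns fraxetin into sideretin, and both of these products carry a catechol group that can reduce and bind ferric iron. Coumarins are stored as glucosides, freed by BGLU42 and secreted through ABCG37, and the pathway is best known as a response of roots to iron deficiency under the transcription factor FIT and its target MYB72.

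Roots were compared in 3 groups of seedlings aged 8 days in the Col-0 background. Replicates 1 and 2 are wild type from phosphate-sufficient medium, replicates 3 and 4 are wild type starved of phosphate, and replicates 5 and 6 are the mutant phl2, starved likewise. PHL2 belongs to the same MYB-type family as PHR1, the main activator of phosphate starvation genes, and the study asked which of those genes depend on PHL2. The labels name neither the phl2 allele nor separate plants or cultures for the replicates, so the p-values rest on differences among libraries that could be purely technical, and mutant roots on sufficient medium are not analysed here.

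Stretches of DNA near the start sites of the genes that gave testable values are shown because the PHR1 family binds one of the motifs in them. Windows of 250 bp upstream of the annotated starts of all 5 genes held neither the PHR1 family site P1BS (GNATATNC) nor the G-box (CACGTG), read on both strands. P1BS occurred in 5.46% and the G-box in 6.49% of 27443 such windows in the genome. The phosphate starvation marker SPX1 also held neither within 250 bp, and its P1BS lay 735 bases before its start. With 1000 bp upstream, where 20.3% of all genes had P1BS and 14.8% had a G-box, ABCG37 had P1BS 368 bases before its start and F6'H1 had a G-box 457 bases before its start. The matched motif is in capitals in each line, both windows are on the plus strand of TAIR10.1 from RefSeq (F6'H1 window chr3:4448776-4448833, ABCG37 window chr3:19824873-19824932), and neither window overlaps a gene.
F6'H1 upstream: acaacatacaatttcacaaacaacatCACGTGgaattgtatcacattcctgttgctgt
ABCG37 upstream: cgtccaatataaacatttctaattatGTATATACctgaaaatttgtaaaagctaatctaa
Neither match shows that a factor binds there.

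F6'H1 has a close copy, F6'H2 (AT1G55290), which also hydroxylates feruloyl-CoA, so the letters they share bear on whether reads can be told apart. Their coding sequences, both 1086 bp, were 76.6% identical when aligned, and S8H (1074 bp) was 59.8% identical to F6'H1. The longest unbroken run that F6'H1 and F6'H2 share is 29 bp, at chr3:4449904-4449932 on the plus strand for F6'H1 and chr1:20626913-20626941 on the minus strand for F6'H2, while S8H and F6'H1 share at most 11 bp.
Run shared by F6'H1 and F6'H2: agcctcttctttgtctctgaagctgaagc
The length of the reads is not given in the sources used here.

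The deposited unit is RPKM, which divides the reads of a gene by its length and by the reads of the library. Values of different genes thus share a unit, but whether each gene had the same share of its reads counted is not known. The 6 columns correspond to about 9415500 to 12804500 reads per library in the RPKM denominator, but the reads behind the gene table came to 616492 to 913213, or 5.44% to 9.07% of it. That share was 7.04% and 6.17% in replicates 1 and 2, 9.07% and 8.39% in replicates 3 and 4, and 5.44% and 6.01% in replicates 5 and 6. It was thus highest in deficient wild type and lowest in phl2. Its part in the differences as deposited was not tested. The phl2 columns hold the same reads for 17207 of 21237 genes (81.0%, within a relative tolerance of 0.001) after a constant ratio of 1.156 is divided out, against at most 9.62% for any other pair of columns. In the other 4030 genes replicate 6 had fewer reads than replicate 5, and in 0 genes it had more. They were therefore counted as 1 sample, their mean, with no spread of its own. The spread of the phl2 sample is assumed to equal that of wild type. PHL2 itself was at 1.65 and 2.37 RPKM on sufficient medium, 2.14 and 2.24 on deficient medium, and 1.04 and 0.934 in the phl2 columns. All phl2 values thus lay below all wild-type values, by 0.68 ± 0.22 (SE) on the log2(RPKM + 1) scale against deficient wild type, which was not called (adjusted p = 0.055, limma). With libraries rescaled as described next, the PHL2 difference was -0.25 ± 0.24 (adjusted p = 0.62). SPX1, a phosphate starvation marker, went from 0.489 and 0.461 RPKM to 16.8 and 13.3 in wild type and was at 8.20 and 9.48 in phl2. Rescaled, SPX1 in phl2 was at 11.4 RPKM, between the deficient wild-type libraries at 12.4 and 10.9 (log2 difference -0.02 ± 0.15, adjusted p = 0.96, limma), whereas as deposited it was called lower (-0.70 ± 0.20, adjusted p = 0.046).

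Genes were tested as log2(RPKM + 1) with limma over 11463 genes that reached 1 RPKM in 2 columns or more, and a gene was called at a Benjamini-Hochberg adjusted p under 0.05. The median log2 difference of all tested genes was 0.33 between deficient and sufficient wild type, -0.48 between phl2 and deficient wild type, and -0.14 between phl2 and sufficient wild type. The tested differences of the 5 genes are therefore given as deposited and again after every library was rescaled by its median ratio to the others, and for the other gene lists the calls are counted on both scales. Rescaling brings those medians to 0.00, -0.01 and 0.00. The comparisons share samples with each other, so their values are given side by side. In these whole roots, fewer cells of a type and less RNA per cell cannot be told apart.

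Of the 5 genes, F6'H1 and ABCG37 passed the filter on low values and were tested, while MYB72, S8H and BGLU42 did not pass. Both tested genes were called higher in deficient than in sufficient wild type, where 28.0% of all tested genes were called higher and 4.45% lower. After rescaling, F6'H1 remained called and ABCG37 did not, against 8.1% of tested genes called higher and 11.7% lower. In phl2 against deficient wild type, 1 of the 2 (F6'H1) was called lower as deposited, against 19.5% of tested genes lower and 0.288% higher. After rescaling 0 of the 2 were called (limma, 1 with an unadjusted p under 0.05), against 0.0174% of tested genes lower and 0.0698% higher. Between phl2 and sufficient wild type, 0 of the 2 were called on either scale (limma, 0 with an unadjusted p under 0.05). The shares of all tested genes there were 2.54% higher and 5.22% lower as deposited, and 5.18% and 5.15% rescaled.

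**Figure D1:**
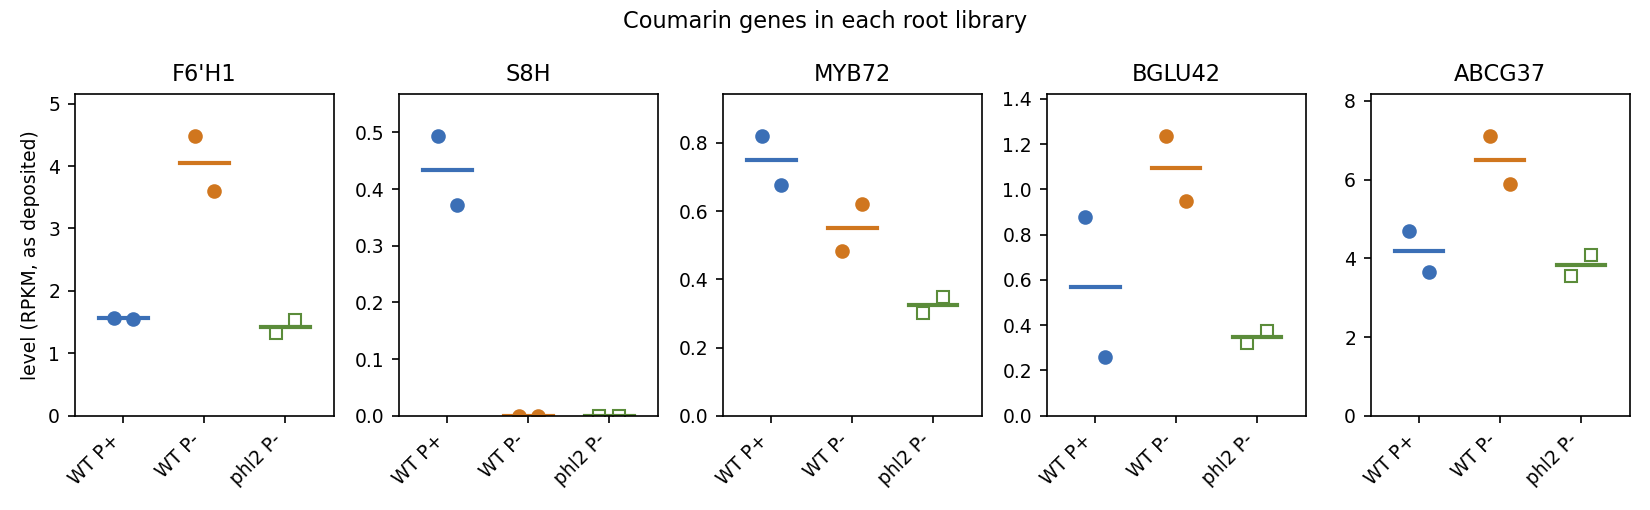
Level in RPKM as deposited (y axes, each from 0 with its own range) of the 5 coumarin genes in each group; points are wild-type libraries, open squares are the phl2 columns that share reads, and bars are group means. F6'H1 and ABCG37 are highest in deficient wild type, while S8H is above 0 on sufficient medium only.

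The row of MYB72, the regulator of the set, was low in every library and was not tested. Its level was 0.822 and 0.677 RPKM (8 and 7 reads) on sufficient medium, 0.482 and 0.622 (5 and 7 reads) in deficient wild type, and 0.302 and 0.349 (4 reads in each column) in phl2. The 3 groups did not overlap and the order ran from sufficient wild type to deficient wild type to phl2, but each library rests on at most 8 reads. Deficient wild type was at 0.552 ± 0.099 RPKM (SD, n = 2), against 0.749 ± 0.10 (SD, n = 2) with phosphate. After rescaling, the phl2 sample at 0.420 fell between the deficient wild-type libraries at 0.355 and 0.509. MYB10, the partner of MYB72 in the iron response, was also below the filter, at 0.358 and 0.337 RPKM with phosphate, 0.336 and 0.103 without, and 0.0878 and 0.102 in phl2.

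The MYB72 locus also carries a long non-coding RNA on its other strand. MYB72 lies on the plus strand of chromosome 1 from 21022384 to 21023587, and AT1G56165 lies on the minus strand from 21022759 to 21024402, so that 74.0% of MYB72's exon bases face exons of AT1G56165. The row of AT1G56165 held 0.810 and 1.19 RPKM (9 and 14 reads) on sufficient medium, 0 and 0.0778 (0 and 1 reads) in deficient wild type, and 0 in both phl2 columns. Its values with phosphate were thus all above its values without, and this locus was not tested either, being below the filter. The libraries were made strand-specific with dUTP, but the strand that was counted is not given in the sources used here. Reads of MYB72 and of the RNA on its other strand therefore cannot be told apart, and the values given for MYB72 may belong to either. The strand behind the rows of the other genes is likewise not known and was not tested. Among loci other than protein-coding genes, 80 had at least 90% of their exons opposite to another gene, with a median of 6.75 RPKM. The median was 0.119 in 152 long non-coding, non-coding or antisense RNA loci with no exon opposite, and 0.400 in 20411 protein-coding genes with none. The 80 loci could be of any other type, pseudogenes included, so these sets differ in more than opposite exons.

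**Figure D2:**
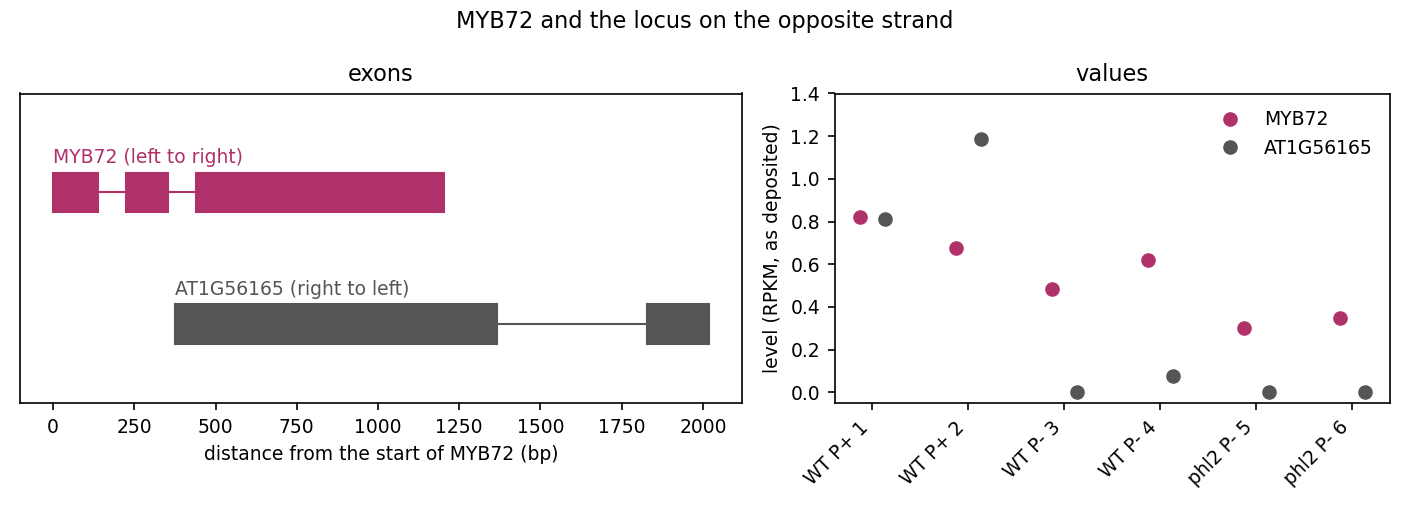
Left, exons (boxes) of MYB72 and of the non-coding locus AT1G56165 on the opposite strand, by distance in bp from the start of MYB72; right, level in RPKM as deposited of both rows in each library. AT1G56165 is at 0.810 and 1.19 RPKM on sufficient medium and at 0.0778 or less in the other 4 columns, while MYB72 is above 0 in all 6.

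F6'H1, the entry enzyme of the pathway, rose in phosphate-deficient wild-type roots. It stood at 1.57 and 1.55 RPKM (20 and 21 reads) on sufficient medium, 4.49 and 3.59 (61 and 53 reads) in deficient wild type, and 1.33 and 1.53 (23 reads in each column) in phl2. Both deficient wild-type libraries were above all others, and the phl2 columns lay just below both sufficient libraries. The mean went from 1.56 ± 0.012 RPKM (SD, n = 2) to 4.04 ± 0.63 (SD, n = 2), a ratio of 2.59, and limma gave a log2 difference of 0.97 ± 0.17 (adjusted p = 0.0049). On the rescaled values it was 0.60 ± 0.13, still called (adjusted p = 0.022). Of all tested genes, 94.2% had a lower log2 difference as deposited and 93.4% had one after rescaling. Without replicate 3 the rise was not called (adjusted p = 0.086), nor without a filter on low values (adjusted p = 0.063). Over all alternatives the adjusted p ran from 2.8e-04 to 0.20.

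In phl2 on deficient medium F6'H1 was at 35.4% of the deficient wild-type mean. The log2 difference of phl2 from deficient wild type was -1.05 ± 0.20 as deposited, and limma called it (adjusted p = 0.040). On the rescaled values it was -0.53 ± 0.16, with a 95% interval from -0.91 to -0.16 (adjusted p = 0.17), and was not called. Rescaled levels were 1.58 and 1.87 RPKM with phosphate, 3.30 and 2.94 without, and 1.84 in phl2, so phl2 stayed below both deficient wild-type libraries and within the range of the sufficient ones. Only 2.15% of tested genes had a lower log2 difference in phl2 as deposited, and 3.43% after rescaling. Against sufficient wild type the phl2 difference was -0.08 ± 0.20 (95% interval -0.54 to 0.39, adjusted p = 0.87), and 0.07 ± 0.16 after rescaling (95% interval -0.31 to 0.44, adjusted p = 0.83). As deposited, the fall in phl2 was not called without replicate 3, 4 or 5 (adjusted p = 0.22, 0.11 and 0.058) or with a pseudocount of 0.1 (adjusted p = 0.051). The adjusted p ran from 5.4e-04 to 0.61 over all alternatives, lowest where both phl2 columns were taken as replicates.

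F6'H1 lies on the plus strand of chromosome 3 from 4449259 to 4450811 in 2 exon blocks, and 4.56% of its exon bases face PUT4 (AT3G13620), a polyamine transporter gene. PUT4 was at 1.21 and 1.14 RPKM with phosphate, 1.62 and 1.55 without, and 0.657 and 0.651 in phl2. It was called in phl2 against deficient wild type as deposited (log2 difference -0.64, adjusted p = 0.0496) and not in wild type (0.25, adjusted p = 0.24). After rescaling it was called in neither (limma, -0.27, adjusted p = 0.39, in phl2 and -0.04, adjusted p = 0.84, in wild type). F6'H2, the close copy, was below the filter at 0.252 and 0.554 RPKM with phosphate, 0.394 and 0.727 without, and 0.309 and 0.357 in phl2. It rests on 3 to 10 reads a library. As deposited, its phl2 columns lay below both deficient wild-type libraries while sufficient wild type overlapped with both other groups, and after rescaling all groups overlapped. COSY (AT1G28680), the enzyme that closes the coumarin ring after F6'H1, was at 4.43 and 4.17 RPKM with phosphate, 5.54 and 5.05 without, and 4.06 and 4.53 in phl2. It was not called in wild type (0.25 ± 0.14, adjusted p = 0.19) or in phl2 against deficient wild type (-0.25 ± 0.18, adjusted p = 0.26). Both differences changed sign after rescaling, to -0.17 ± 0.11 (adjusted p = 0.35) and 0.36 ± 0.14 (adjusted p = 0.24, unadjusted p = 0.041, limma), with phl2 at 5.54 RPKM above the deficient libraries at 4.08 and 4.13. Of the exon bases of COSY, 73.9% face another gene.

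S8H, the step from scopoletin to fraxetin, was listed above 0 only on sufficient medium. It held 0.494 and 0.373 RPKM (5 and 4 reads) there and 0 in all 4 columns of deficient roots, wild type and phl2 alike. With the empty deficient wild type set at a floor of 3 reads over its libraries, the 9 reads put the sufficient level 3.23-fold above that floor. The 9 reads were taken without their own counting error, so 3.23 is not a lower limit. The floor is 0.134 RPKM for deficient wild type and 0.218 RPKM for phl2, and it covers counting error of the empty group only. S8H was below the filter and not tested. Without a filter on low values the log2 difference of deficient from sufficient wild type was -0.52 ± 0.063 (adjusted p = 0.057, limma), and with rescaling as well, a setting chosen after seeing the data, -0.56 ± 0.042 (adjusted p = 0.048). S8H lies on the plus strand of chromosome 3 from 4104463 to 4106341, and no exon of another gene faces it.

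CYP82C4, which acts after S8H, had the same pattern. It was at 0.933 and 0.385 RPKM (about 16.6 and 7.2 reads) with phosphate and at 0 in all 4 columns without. The sufficient level was 8.55-fold above the same kind of floor, which again is not a lower limit. F6'H1 and the hydroxylases that act after it thus had opposite directions in wild type: the first step was higher in both deficient libraries, and the 2 later steps were listed at 0 in both.

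BGLU42, which releases coumarins from their glucosides, was below the filter and its sufficient libraries disagreed. It was at 0.879 and 0.259 RPKM (16 and 5 reads) with phosphate, 1.24 and 0.950 (24 and 20 reads) in deficient wild type, and 0.323 and 0.374 (8 reads in each column) in phl2. Both deficient wild-type libraries were above the others as deposited, by a narrow margin over replicate 1. After rescaling, the deficient libraries at 0.911 and 0.777 RPKM overlapped with the sufficient ones at 0.884 and 0.311. The phl2 sample at 0.450 lay below the deficient libraries and inside the sufficient range. Without a filter on low values, the log2 difference was 0.44 ± 0.25 in wild type (adjusted p = 0.31, limma) and -0.63 ± 0.30 in phl2 against deficient wild type (adjusted p = 0.26). BGLU42 lies on the minus strand of chromosome 5 from 14541289 to 14546230.

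ABCG37, the exporter, had the highest RPKM of the 5 genes in every library. It was at 4.70 and 3.66 RPKM (about 207 and 172 reads) with phosphate, 7.12 and 5.90 (about 335 and 301 reads) in deficient wild type, and 3.54 and 4.09 (about 213 reads each) in phl2. The deficient wild-type libraries were above all others, and phl2 overlapped with sufficient wild type. The means were 4.18 ± 0.73 and 6.51 ± 0.86 RPKM (SD, n = 2 each), a ratio of 1.56, and limma gave a log2 difference of 0.54 ± 0.17 (adjusted p = 0.040). On the rescaled values it was 0.12 ± 0.11, with a 95% interval from -0.16 to 0.39 (adjusted p = 0.52), and was not called. Rescaled levels were 4.73 and 4.40 RPKM with phosphate, 5.24 and 4.82 without, and 4.93 in phl2. As deposited, the rise was not called without replicate 2, 3 or 4 (adjusted p = 0.18, 0.26 and 0.092), and over all alternatives the adjusted p ran from 0.013 to 0.87.

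In phl2, ABCG37 was at 58.7% of the deficient wild-type mean, which limma did not call (log2 difference -0.63 ± 0.20, adjusted p = 0.055). On the rescaled values the difference was -0.02 ± 0.14, with a 95% interval from -0.36 to 0.31 (adjusted p = 0.95). The difference as deposited was called without replicate 1, 2 or 6 (adjusted p = 0.048, 0.048 and 0.034), and the adjusted p ran from 0.0041 to 1 over all alternatives. Against sufficient wild type, phl2 differed by -0.10 ± 0.20 (95% interval -0.56 to 0.37, adjusted p = 0.83), and by 0.09 ± 0.14 after rescaling (95% interval -0.24 to 0.43, adjusted p = 0.73). The gene lies on the plus strand of chromosome 3 from 19825267 to 19831880 in 23 exon blocks, and no exon of another gene faces it.

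**Figure D3:**
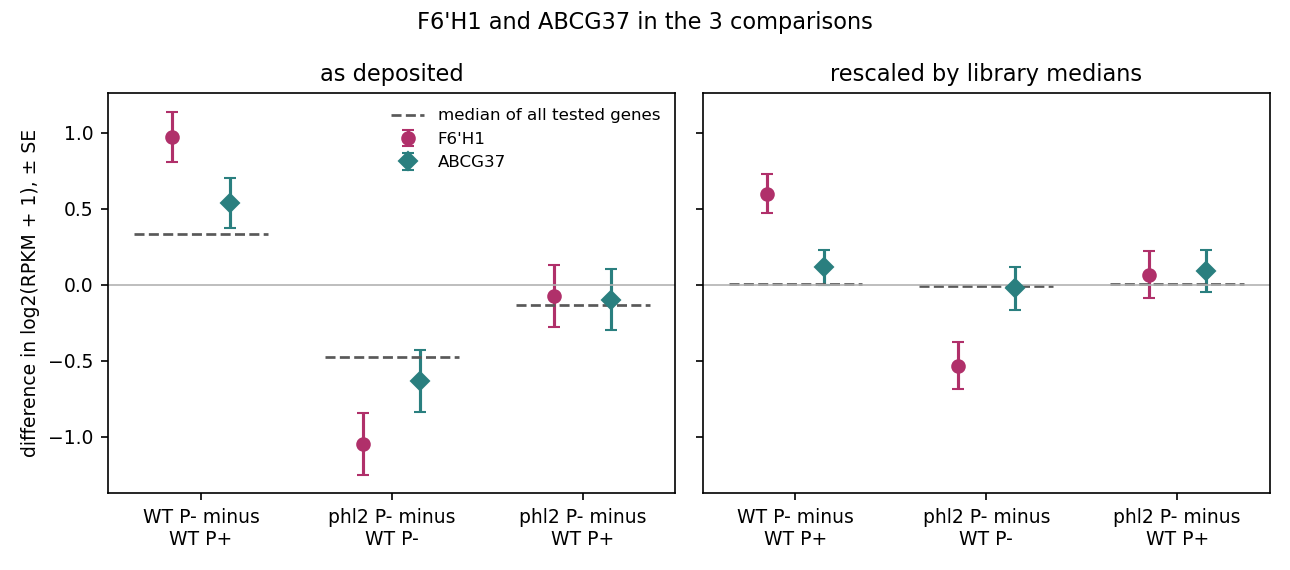
Difference in log2(RPKM + 1) with its standard error (y axis) of F6'H1 and ABCG37 in the 3 comparisons (x axis), as deposited on the left and after rescaling on the right; dashed lines are medians of all tested genes. F6'H1 stands away from the median in the first 2 comparisons on both scales, and ABCG37 comes to within 0.12 of it in all 3 after rescaling.

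Within each group the order of RPKM values, which may not be the order of RNA amounts, was led by ABCG37 and then F6'H1. In sufficient wild type the means were 4.18 RPKM for ABCG37, 1.56 for F6'H1, 0.749 for MYB72, 0.569 for BGLU42 and 0.434 for S8H. BGLU42 did not separate from MYB72 or S8H there, because its libraries spanned 0.259 to 0.879. In deficient wild type the order was ABCG37 at 6.51, F6'H1 at 4.04, BGLU42 at 1.09, MYB72 at 0.552 and S8H at 0, and no neighbours overlapped. In phl2 it was ABCG37 at 3.82, F6'H1 at 1.43, BGLU42 at 0.349, MYB72 at 0.326 and S8H at 0. BGLU42 was above MYB72 in each phl2 column, but on 8 and 4 reads in columns that share their reads. Among genes above 0, ABCG37 lay at the 91.5th percentile with phosphate and at the 94th without, while F6'H1 went from the 73.1st to the 87.9th and was at the 74.4th in phl2.

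Genes most like F6'H1 were sought by the Euclidean distance between profiles of rescaled log2(RPKM + 1), each centred on its own mean over the 5 samples. The nearest were G6PD3 (a plastid glucose-6-phosphate dehydrogenase, distance 0.11), EIF4A-2 (a translation initiation factor, 0.13) and AT1G47640 (0.13). G6PD3 was at 0.519 and 0.635 RPKM with phosphate, 2.29 and 1.89 without, and 0.496 and 0.574 in phl2. EIF4A-2 was at 2.36 and 2.05, then 6.06 and 5.17, then 1.73 and 2.0. For ABCG37 the nearest were GAUT3 (a galacturonosyltransferase-like gene, 0.032), DL1 (a dynamin-like gene, 0.034) and AT1G28240 (0.035). Such distances are descriptions over 5 samples that share 3 conditions.

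The pathway neighbours of the 5 genes are 11 further genes listed around coumarin synthesis, regulation, glucoside handling and export, of which 8 were tested. The list takes in ABC transporters related to ABCG37, and whether these export coumarins was not tested. In deficient wild type 5 of the 8 rose and 0 fell as deposited (limma, 0 falls with an unadjusted p under 0.05), with a median log2 difference of 0.66 against 0.33 for all tested genes. Of all tested genes 28.0% were called higher and 4.45% lower there. After rescaling 1 of the 8 rose and 1 fell, with a median of 0.24, against 8.1% of all tested genes higher and 11.7% lower. BGLU21, a root beta-glucosidase that acts on scopolin, was at 5.98 and 4.88 RPKM with phosphate, 15.4 and 14.0 without, and 8.12 and 9.34 in phl2. Its libraries did not overlap between any groups, and its rise of 1.29 ± 0.14 (adjusted p = 6.8e-04) was called after rescaling too (0.84 ± 0.11, adjusted p = 0.0044). The fall after rescaling was that of PYK10, the main beta-glucosidase of root endoplasmic reticulum bodies (-0.52 ± 0.12, adjusted p = 0.030), which was at 29.3 and 24.8 RPKM with phosphate and 27.8 and 24.9 without.

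The other rises among the neighbours were BGLU22, a close relative of BGLU21 (0.81 ± 0.13, adjusted p = 0.0039), and the ABC transporters ABCG36 (0.70 ± 0.14, adjusted p = 0.0089), ABCG33 (0.69 ± 0.15, adjusted p = 0.013) and ABCG29 (0.63 ± 0.18, adjusted p = 0.033). None of these 4 was called after rescaling (limma), where ABCG33 came nearest at 0.45 ± 0.12 (adjusted p = 0.050). ABCG33 passed the filter only through the deficient wild-type libraries, where it was high. It is among the rises counted above as deposited, so that count is partly set by the filter. In phl2 against deficient wild type 5 of the 8 were called lower as deposited, against 19.5% of all tested genes. Their median was -0.63, against -0.48 for all tested genes. The 5 called were BGLU21 (-0.69 ± 0.18), ABCG36 (-0.66 ± 0.17), ABCG29 (-0.89 ± 0.22), PYK10 (-0.59 ± 0.15) and UGT71C1, a glycosyltransferase (-0.73 ± 0.19), with adjusted p from 0.042 to 0.043. After rescaling 0 of the 8 were called (limma, 1 higher and 0 lower with an unadjusted p under 0.05) and the median was -0.01. Of all tested genes 0.0698% were higher and 0.0174% lower there. BGLU21 was the 1 neighbour called higher in phl2 than in sufficient wild type after rescaling (0.82 ± 0.13, adjusted p = 0.016), where F6'H1 differed by 0.07 ± 0.16. Of all tested genes 5.18% were called higher in that comparison.

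**Figure D4:**
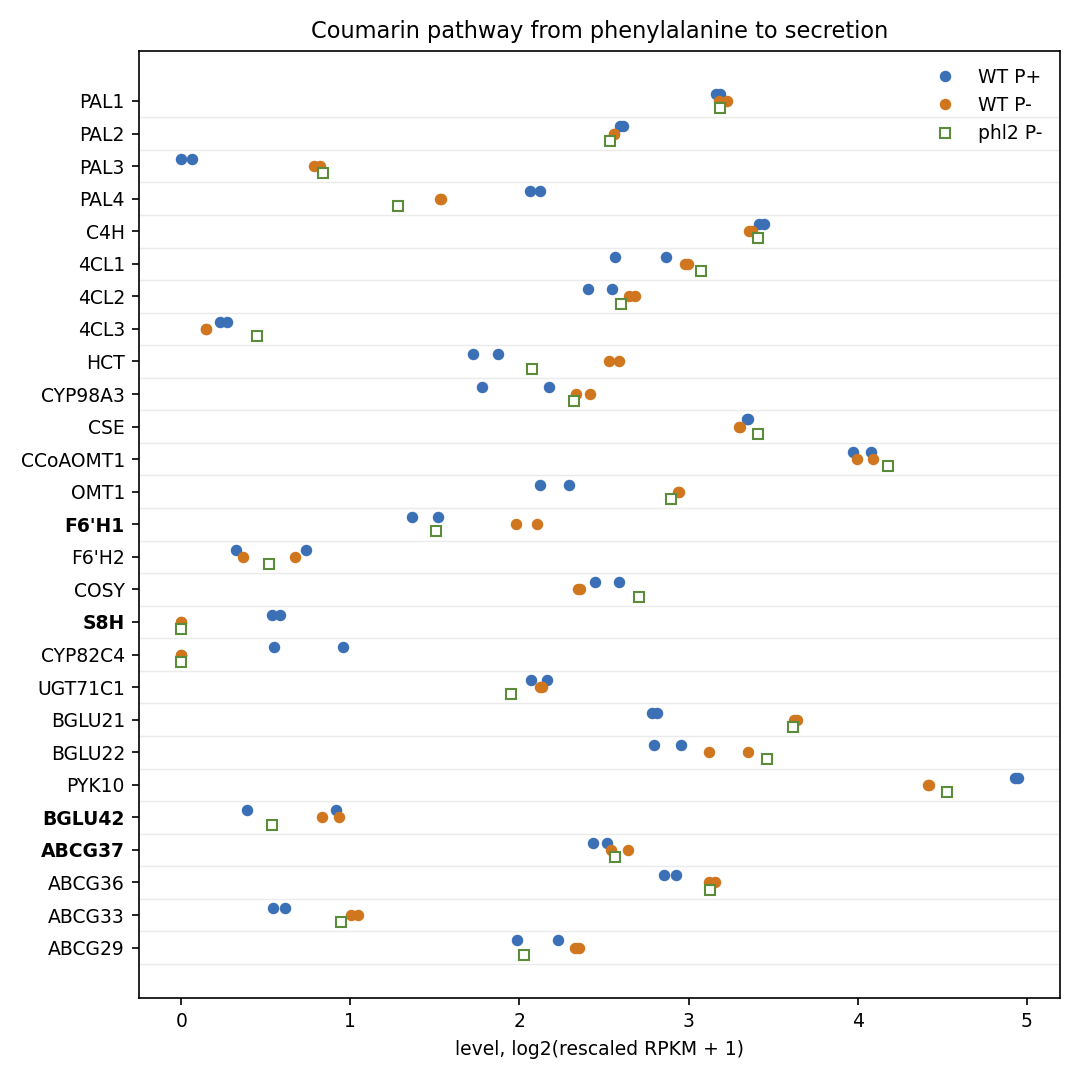
Level as log2(rescaled RPKM + 1) (x axis) of pathway genes in order from phenylalanine to secretion (y axis, the 5 coumarin genes in bold except MYB72, which is not an enzyme or transporter and is not shown); filled points are wild-type libraries and open squares are the phl2 sample. HCT, OMT1, F6'H1 and BGLU21 are higher in both deficient wild-type libraries than with phosphate, and S8H and CYP82C4 are at 0 without phosphate.

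Supply of feruloyl-CoA was followed in 13 genes from phenylalanine ammonia-lyase onwards, of which 11 were tested. As deposited, 7 of the 11 rose in deficient wild type and 0 fell (limma, 0 falls with an unadjusted p under 0.05), with a median of 0.49. Of all tested genes 28.0% were called higher and 4.45% lower, with a median of 0.33. After rescaling 2 rose, HCT and OMT1, and 1 fell, PAL4 (-0.56 ± 0.12, adjusted p = 0.021), with a median of 0.03, against 8.1% higher and 11.7% lower of all tested genes. HCT, the acyltransferase that opens the route to caffeoyl and feruloyl esters, was at 2.64 and 1.91 RPKM with phosphate, 6.81 and 5.85 without, and 2.31 and 2.67 in phl2. OMT1, an O-methyltransferase of the same route, was at 3.88 and 2.78, then 9.12 and 8.13, then 4.63 and 5.35. Their rises were 1.17 ± 0.17 and 1.16 ± 0.17 as deposited (adjusted p = 0.0025 and 0.0023) and 0.76 ± 0.12 and 0.73 ± 0.12 rescaled (adjusted p = 0.0079 and 0.0089). The ligases 4CL1 (0.71 ± 0.14, adjusted p = 0.0080) and 4CL2 (0.62 ± 0.14, adjusted p = 0.015) were called as deposited only.

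In phl2 against deficient wild type 8 of the 11 supply genes were called lower as deposited, with a median of -0.64, against 19.5% of all tested genes and their median of -0.48. The log2 difference of HCT was -1.07 ± 0.21 (adjusted p = 0.040, limma), and its phl2 columns lay inside the range of the sufficient libraries or just above it. 4CL2 (-0.68 ± 0.17), C4H, the cinnamate hydroxylase (-0.62 ± 0.17), and PAL1, a phenylalanine ammonia-lyase (-0.67 ± 0.18), had adjusted p from 0.042 to 0.045. After rescaling 0 of the 11 were called (limma, 1 lower and 0 higher with an unadjusted p under 0.05), with a median of -0.03 and HCT at -0.49 ± 0.14 (adjusted p = 0.18). PAL3 was below the filter, at 0.0427 and 0 RPKM with phosphate, 1.04 and 0.887 without, and 0.566 and 0.654 in phl2.

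The iron regulators that act above MYB72 were followed in 13 genes, of which 7 were tested. In deficient wild type 0 were called as deposited (limma, 2 lower and 0 higher with an unadjusted p under 0.05), against 4.45% of all tested genes lower and 28.0% higher. After rescaling 2 of the 7 fell, against 11.7% of all tested genes lower and 8.1% higher. These were FIT, the central iron-response factor (-0.77 ± 0.14, adjusted p = 0.012), and its partner bHLH39 (-0.80 ± 0.17, adjusted p = 0.022). FIT was at 2.35 and 1.70 RPKM with phosphate, 1.36 and 0.937 without, and 0.399 and 0.461 in phl2, and its groups did not overlap. The partners bHLH38 (0.932 and 0.987 RPKM) and bHLH100 (0.546 and 0.514 RPKM) were above 0 with phosphate and at 0 in all 4 columns without, as S8H was. In phl2 against deficient wild type bHLH39 (-0.91 ± 0.21, adjusted p = 0.040) and bHLH121, an upstream regulator of the iron response (-0.72 ± 0.20, adjusted p = 0.046), were called lower as deposited. Of all tested genes 19.5% were called lower there as deposited and 0.0174% rescaled. After rescaling 0 of the 7 iron regulators were called there (limma, 1 lower and 0 higher with an unadjusted p under 0.05). Against sufficient wild type phl2 was lower on both scales in FIT (-1.07 ± 0.23, adjusted p = 0.028, and -1.04 ± 0.17, adjusted p = 0.015, rescaled) and in bHLH39 (-1.40 ± 0.21, adjusted p = 0.0076, and -1.38 ± 0.21, adjusted p = 0.013, rescaled).

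Of 9 iron uptake genes, 7 were tested, and in deficient wild type 3 fell and 2 rose as deposited, and 4 fell and 0 rose rescaled (limma, 0 rises with an unadjusted p under 0.05). Of all tested genes, 4.45% were called lower and 28.0% higher as deposited, and 11.7% and 8.1% rescaled. The rises were those of AHA2, a plasma membrane proton pump (0.51 ± 0.15, adjusted p = 0.037), and NRAMP1, a manganese and iron transporter (0.71 ± 0.23, adjusted p = 0.045). AHA2 was at 10.4 and 7.96 RPKM with phosphate, 14.1 and 12.8 without, and 6.26 and 7.24 in phl2, and rescaled its wild-type groups overlapped (0.05 ± 0.11, adjusted p = 0.79, limma). NRAMP1 was at 0.982 and 1.03, then 3.15 and 1.60, then 0.638 and 0.737, and rescaled its rise was not called (0.39 ± 0.20, adjusted p = 0.21, limma). IRT2, a relative of IRT1, was below the filter, at 0.313 and 0.147 RPKM with phosphate, 0.954 and 0.676 without, and 0.403 and 0.466 in phl2, so that its deficient wild-type libraries were above the sufficient ones. IRT1, the iron importer, was at 3.58 and 3.04 RPKM with phosphate and at 0 in all 4 columns without, and FRO2, the ferric reductase, went from 2.87 and 2.99 to 0.0414 and 0.191, with 0.0973 and 0.113 in phl2. IRT1 and FRO2 passed the filter only through the sufficient libraries, where they were high. Both are among the falls counted above, so that count is partly set by the filter. S8H, which rests on 9 reads, CYP82C4 and IRT1 were thus all at 0 in deficient wild type and in phl2, while F6'H1, ABCG37, MYB72 and BGLU42 were above 0 there. The share of all genes with such a pattern was not computed. In phl2 against deficient wild type 3 of the 7 (AHA2, NAS2 and NRAMP1) were called lower as deposited and 0 after rescaling (limma, 1 lower and 0 higher with an unadjusted p under 0.05). Of all tested genes 19.5% were called lower there as deposited and 0.0174% rescaled.

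Marker genes were read beside these values. Of 10 root cell type markers all were above 0 in deficient wild type and in phl2, with CO2, the cortex marker, near 0 throughout (at most 0.274 RPKM, and 0 in replicate 2). Their summed level was 13.1 and 10.4 RPKM with phosphate, 19.9 and 18.9 without, and 10.2 and 11.7 in phl2, and rescaled it was 12.5 to 15.4 in every column. Of the 8 root markers tested, 3 were called higher in deficient wild type and 2 lower in phl2 against it as deposited. After rescaling 2 were higher and 2 lower in wild type and 0 were called in phl2 (limma, 1 lower and 0 higher with an unadjusted p under 0.05). The 5 shoot markers, genes of photosynthesis, summed to 21.5 and 18.7 RPKM with phosphate, 16.0 and 12.6 without, and 4.56 and 5.27 in phl2, and none was at 0. Of these 5, 3 were called lower in deficient wild type on both scales, and 4 were called lower in phl2 against deficient wild type as deposited and 0 rescaled (limma, 4 lower and 0 higher with an unadjusted p under 0.05). Of all tested genes, 28.0% were called higher and 4.45% lower in deficient wild type as deposited, and 8.1% and 11.7% rescaled. In phl2 against deficient wild type 19.5% were called lower as deposited and 0.0174% rescaled. The part of these markers in the coumarin gene values was not tested.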

How the data were processed

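The authors deposited 1 table of RPKM values from strand-specific (dUTP) libraries of polyadenylated RNA, per the labels' protocols. TopHat2, DESeq2 and TAIR10 appear in the submitters' processing notes, with no role or version. The sources used here give no counter, strand setting or annotation release. The 5 genes and all gene lists were chosen with earlier results of these data known.

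The deposited RPKM values were analysed as log2(RPKM + 1), which understates changes of low genes, with limma 3.58.1 in R 4.3.3. The fit had 1 mean per group over 5 samples (residual degrees of freedom 2, prior 6.34), trended variances and two-sided tests, and was tested on simulated data. Rescaling divided replicates 1 to 4 by 0.994, 0.831, 1.36 and 1.22 and phl2 by 0.775. The worth of 1 read came from 264 to 329 low pseudogene values per library, of which 99.6% to 100% fell within 0.1 read of a whole number. Reads given as about used RefSeq lengths. In a gene of 1 kb, 1 read is worth 0.0781 to 0.106 RPKM.

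Named besides the 5 genes are PHL2 and SPX1, up to 4 genes per list with the smallest adjusted p in either of the first 2 comparisons, genes with the nearest profiles, close copies, overlapping genes, and list genes chosen after their values were seen (CYP82C4, COSY, PYK10, PAL3, PAL4, MYB10, bHLH38, bHLH100, IRT2). The rule also takes in ILR3, bHLH115, NAS1 and the rest of the starvation list, which are not described. Coordinates (1-based) and sequences are from TAIR10.1 of RefSeq, which matched 32827 of 33602 genes. Identity was computed on coding DNA with Biopython 1.88 in place of the proteins planned. Alternatives were other scalings, a pseudocount of 0.1, no filter, both phl2 columns as replicates and each replicate left out. Those combining rescaling with a left-out replicate, no filter or a pseudocount of 0.1 were added after seeing the data.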

Additional observations from a re-analysis of the deposited data

How the results depend on the processing

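No paired analysis was possible because each replicate number occurs in 1 group only. Pairs below are F6'H1 then ABCG37, as log2 differences, and pairs of counts are genes called higher then lower. Leaving out a replicate of the group outside a comparison leaves its difference as it was or nearly so. Such alternatives are therefore weak checks, yet they are included in the tallies that follow. In wild type, F6'H1 was called in 16 of 21 alternatives and ABCG37 in 4 of 21. The 4 for ABCG37 were both phl2 columns as replicates and the fits without replicate 1, 5 or 6. F6'H1 was lost there without a filter (0.97, and 0.58 rescaled) and without replicate 3 on either scale or replicate 4 after rescaling. ABCG37 was at 0.12 rescaled, 0.25 with quantile normalization, 0.061 rescaled over genes with no opposite-strand exon, 0.63 with a pseudocount of 0.1, 0.54 without a filter, 0.11 rescaled with both phl2 columns, 0.096 rescaled without a filter and 0.14 rescaled with a pseudocount of 0.1. In phl2 against deficient wild type, F6'H1 kept its call in 5 of 21 and was at -0.53, -0.57, -0.48, -1.43 and -1.05 under the first 5 of these settings, and at -0.51 and -0.73 under the last 2. ABCG37 was called there at -0.64 with both phl2 columns, and was at 0.037 when rescaled over genes with no opposite-strand exon.

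Against sufficient wild type the differences of phl2, called in no alternative, turned positive in 11 of 21 alternatives for F6'H1 and 13 of 21 for ABCG37. They were 0.066 and 0.091 rescaled, 0.077 and 0.082 with quantile normalization, 0.071 and 0.098 rescaled over genes with no opposite-strand exon, 0.067 and 0.093 rescaled with both phl2 columns, 0.068 and 0.094 rescaled without a filter, and 0.099 and 0.11 rescaled with a pseudocount of 0.1. Leaving out 1 replicate at a time, on both scales, gave 0.52 to 1.1 and 0.060 to 0.68 in wild type, -1.18 to -0.45 and -0.75 to 0.033 in phl2 against deficient wild type, and -0.14 to 0.15 and -0.24 to 0.13 against sufficient wild type. The cause was not tested.

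Over all genes, wild-type counts were 928 and 1342 rescaled, 1086 and 1193 with quantile normalization, 813 and 1485 rescaled over genes with no opposite-strand exon, 221 and 57 without a filter, and 1771 and 2085 rescaled with both phl2 columns, which gave 5030 higher as deposited. Leaving out replicates gave 635 to 3293 and 187 to 510. For phl2 against deficient wild type the counts were 8 and 2, 11 and 5, 8 and 2, 0 and 0 (limma, with an unadjusted p under 0.05 in 422 and 6154), and 1384 and 1000 under the same settings, 188 and 7448 with both phl2 columns as deposited, 7 and 30 with a pseudocount of 0.1, and 10 to 60 and 3 to 4272 with a replicate left out. Against sufficient wild type 594, 546 and 581 were higher under the first 3, 2 and 0 without a filter (limma, 1295 and 2180 unadjusted), 1890 and 1819 and, as deposited, 864 and 2207 with both phl2 columns, and 190 to 332 and 246 to 729 with a replicate left out. MYB72, S8H and BGLU42 rest on at most 24 reads a library and were tested only without the filter.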
